A study of Mus musculus with 7 samples.

Results

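The immunoglobulin constant genes encode the parts of an antibody that set its class, and they are described here across 7 libraries of messenger RNA that the labels call CD8+ T cells, taken from the ascites of mice bearing peritoneal metastases. The members are 7 heavy chain genes (Ighm, Ighd, Ighg3, Ighg1, Ighg2b, Ighg2c and Igha), the light chain genes Igkc and Iglc1, and Jchain, 10 of the 56422 gene symbols in the deposited table. They were chosen by symbol, all 10 were found, in 18 transcript rows, and all 10 passed the filter on low values. The 3 treated libraries came from mice given propionate together with butyrate, both short-chain fatty acids that intestinal bacteria release, and the 4 control libraries from mice given no treatment. The labels do not give the mouse strain, the tumour line, the age or a dose, nor whether the libraries came from different animals, and the p-values therefore reflect the spread among these samples, part of which may be technical. The third treated library carries a column number that no treated sample has and is therefore named without a replicate number.

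Each antibody is built from paired heavy and light chains, and the heavy chain constant gene in use gives its class. A resting B cell makes IgM and IgD (Ighm, Ighd) from the same transcripts by alternative processing. After class switching, which cuts out the intervening DNA, the same variable region is joined to an IgG, IgE or IgA gene. Jchain joins IgM and IgA units into polymers and is made by antibody-secreting cells. B cells and plasma cells make functional antibody RNAs, and CD8+ T cells are not known to. In bulk samples fewer cells of a type and less RNA per cell cannot be told apart.

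Genes of T cells and of macrophages were at unequal levels across the libraries. Summed over 10 genes of T cells, Cd8a and Cd8b1 of CD8+ cells among them, expression ran from 587 to 2490 TPM (a level corrected for transcript length and set to an equal total per library) in treated libraries and from 123.2 to 208.4 TPM in control libraries. All 10 of those genes rose in the treated libraries, against 4.3% of all genes tested. Cd8a rose by 2.99 on the log2 scale (SE 0.39, adjusted p by limma and Benjamini-Hochberg = 0.000492). Summed macrophage genes ran from 3318 to 4047 TPM in treated libraries, against from 6112 to 14810 TPM in controls. Apoe alone, an apolipoprotein gene that other cells also express, made up 39.1% to 57.7% of that sum in treated and 57.2% to 62.9% in control libraries. Without it the other 9 genes overlapped, at 1701 to 2465 TPM in treated and 2295 to 6342 TPM in control libraries. Of the 10, 2 fell, Apoe and the IgG receptor gene Fcgr1, or 20% against 7.59% of all genes tested. The log2 fold change was below 0 for 9 of the 10, with a median of -0.68 over the list. It was above 0 for 1, Adgre1, which encodes the macrophage marker F4/80 (0.14). Mitochondrially encoded genes held 32.87% of TPM in the third treated library and 13.57% to 18.23% in the other 6 libraries. TPM carries no sequencing depth, so no counting error can be given for any value.

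The IgG subclass genes resemble each other, which bears on how reads are split between them. The first 90 bases of the constant region, from the GENCODE M21 transcripts, are shown to let the subclass genes be told apart. The subclass genes lie on chromosome 12, and capitals mark bases that differ from Ighg2b at the same position.
Ighg2b: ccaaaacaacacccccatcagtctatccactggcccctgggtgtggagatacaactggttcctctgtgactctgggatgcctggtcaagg
Ighg2c: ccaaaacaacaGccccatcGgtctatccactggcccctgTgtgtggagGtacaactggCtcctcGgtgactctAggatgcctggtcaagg
Ighg1: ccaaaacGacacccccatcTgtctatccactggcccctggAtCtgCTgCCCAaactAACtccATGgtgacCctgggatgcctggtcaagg
Ighg3: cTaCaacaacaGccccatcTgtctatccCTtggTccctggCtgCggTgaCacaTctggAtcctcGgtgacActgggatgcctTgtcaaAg
Within this stretch Ighg2c differed from Ighg2b at 7 bases, and Ighg1 and Ighg3 each at 17. Over the whole first exon of 291 bases, Ighg2c and Ighg2b were 87.6% identical. Of all 50-base words in the Ighg2c transcripts, 5.49% also occurred in another constant gene, and the share was 4.15% for Ighg2b, 1.58% for Ighg3 and 0.393% for Ighg1. The shares were 0% for Ighm, Ighd, Igha, Igkc, Iglc1 and Jchain, whose reads of that length each match a single gene of the set. The read length and the way reads matching several genes were assigned are not given in the sources used here, so the split among the IgG genes is uncertain. The 2 lambda genes Iglc2 and Iglc3 shared 43 such words with each other and none with Iglc1.

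The highest members, Igkc and Ighm, kept the same order in every library. Igkc, the kappa light chain constant gene, was highest in all 7 libraries, with a median of 261 TPM over them and a range from 123.5 to 419.2 TPM. Ighm, the IgM heavy chain gene, came next in all 7, with a median of 135.6 TPM. Igha, the IgA gene, followed with a median of 37.4 TPM (mean 42.5 TPM) and lay above Ighg2c in 6 of the 7 libraries. The means of Igha and Ighg2c were 31.4 and 31.7 TPM in treated libraries, and 50.9 and 17.6 TPM in control libraries. Below Igkc, Ighm and Igha the neighbours did not differ beyond their spread. Ighg2c exceeded Jchain, Ighg2b exceeded Iglc1, and Iglc1 exceeded Ighd in 4 of 7 libraries each, though Jchain exceeded Ighg2b and Ighd exceeded Ighg1 in 6 of 7. Ighg1 and Ighg3 were lowest, with medians of 2.80 and 1.65 TPM.

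**Figure D1:**
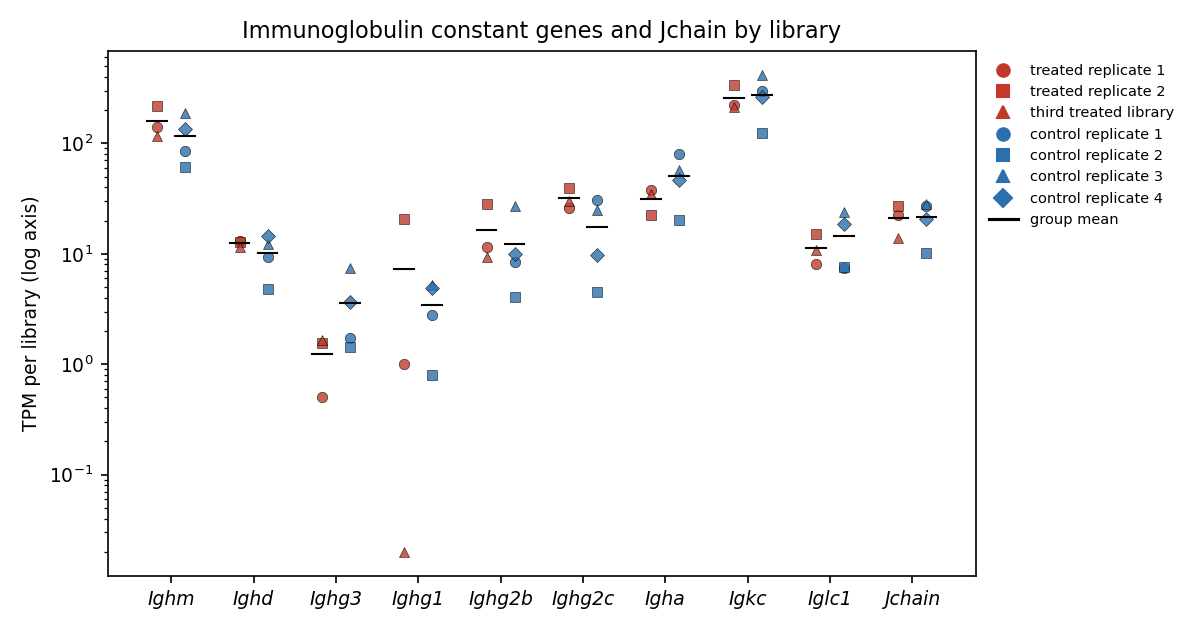
TPM of each of the 10 genes on a log axis, with treated libraries in red to the left of control libraries in blue, a marker for each library and a bar at the group mean. The groups overlapped for every gene, and Ighg1 spread most, with 0.02 TPM in the third treated library against 20.8 TPM in treated replicate 2.

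None of the 10 members passed the test between the groups. Across all 14967 genes tested, 11.9% were called, 4.3% (643) as higher and 7.59% (1136) as lower in treated libraries (limma with Benjamini-Hochberg adjustment over all genes, at an adjusted p under 0.05), against 0 of 10 members higher and 0 lower. At an unadjusted p under 0.05 there were 2 members, Ighg2c and Ighg3, and 4567 of all genes. The values of treated and control libraries did not overlap for 30.5% of genes tested, against 0 of the 10 members. The median log2 fold change was 0.01 over the members, of which 6 lay above 0 and 4 below, and -0.24 over all genes tested. Fold changes are on the log2(TPM + 1) scale, which understates changes of low genes. Median-of-ratios scaling moved the median of all genes by 0.24, to -0.00, and gave 1354 genes higher and 973 lower, with 0 members called. Which library was lowest was shared by many members, since control replicate 2 held the lowest value of 7 of the 10. Control replicate 3 and treated replicate 2 held the highest value of 4 members each. With the third treated library left out, 0 members were called, Ighm was at 0.71, Ighg2c at 1.14, Ighg3 at -1.04 and Igha at -0.64.

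The IgM and IgD genes differed by less than the spread between libraries. Ighm was at 142, 218 and 117 TPM in treated replicates 1 and 2 and the third treated library, and at 84.5, 61.6, 187 and 136 TPM in control replicates 1 to 4. The groups overlapped, with control replicate 3 above 2 of the 3 treated libraries. Ighm averaged 159 ± 52.8 TPM (SD, n = 3) in treated and 117 ± 55.8 TPM (SD, n = 4) in control libraries, a log2 fold change of 0.51 with a 95% interval from -0.18 to 1.21 (limma, Benjamini-Hochberg adjusted p = 0.294). The log2 fold change of Ighm was 0.25 without control replicate 2, 0.26 without treated replicate 2 and 0.78 without control replicate 3, with no call in any of these. With replicate numbers 1 and 2 as a block, which keeps 4 libraries, it was 1.27 and passed (limma adjusted p = 0.0441), although no label makes the numbers pairs. Ighd averaged 12.4 ± 0.774 TPM (SD, n = 3) in treated and 10.2 ± 4.17 TPM (SD, n = 4) in control libraries, with a log2 fold change of 0.35 and a 95% interval from -0.27 to 0.96. Control replicate 2 moved the value of Ighd most, to 0.06 when it was left out, and without control replicate 4 it was 0.53. The replicate block gave 0.83 for Ighd, with no call. Treated libraries were close together for Ighd, from 11.6 to 13.0 TPM, inside the control range of 4.83 to 14.5 TPM. TPM of Ighm per TPM of Ighd was 12.7 ± 3.77 (SD, n = 3) in treated and 11.6 ± 2.98 (SD, n = 4) in control libraries, again overlapping.

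The table held 2 transcript rows for Ighm with similar levels, and they carry no identifier that tells the membrane from the secreted form. The row listed first held 47.9%, 41.2% and 22.8% of Ighm TPM in treated replicates 1 and 2 and the third treated library, and 47.5%, 52.8%, 49.6% and 36.4% in control replicates 1 to 4. The lowest share was that of the third treated library, and the groups overlapped. For Igha, Ighd, Ighg2b and Ighg2c a single row held over 91% of the gene in every library. For Ighg3 the row listed first held 30.0% to 56.1% in treated and 32.2% to 76.3% in control libraries. For Ighg1 the first row held 0% in the third treated library, where the gene was at 0.02 TPM, and 95.99% to 100% elsewhere.

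The IgA gene had a negative difference that did not pass the test. Igha was at 37.4, 22.3 and 34.6 TPM in treated replicates 1 and 2 and the third treated library, and at 79.8, 20.2, 56.9 and 46.6 TPM in control replicates 1 to 4. Control replicate 2, the lowest of all, lay below every treated library, while the other 3 control libraries lay above them. Its log2 fold change was -0.56 with a 95% interval from -1.31 to 0.19 (limma, Benjamini-Hochberg adjusted p = 0.293). Without control replicate 2 the log2 fold change was -0.93 and passed (adjusted p = 0.0274), and without control replicate 1 it was -0.29 (adjusted p = 0.572). Jchain, whose product joins IgA and IgM units, was at 22.6, 27.3 and 14.0 TPM in treated and at 27.0, 10.3, 28.4 and 20.5 TPM in control libraries, in the same order of libraries. The groups overlapped for Jchain, with a log2 fold change of 0.03 and a 95% interval from -0.65 to 0.70. Jchain per heavy chain TPM was 0.0818 ± 0.0146 (SD, n = 3) in treated and 0.102 ± 0.0164 (SD, n = 4) in control libraries.

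Among the IgG genes, Ighg2c, the IgG2 gene that C57BL/6 mice carry in place of Ighg2a, had the largest positive difference of the 10 members. It was at 26.1, 39.2 and 29.9 TPM in treated replicates 1 and 2 and the third treated library, and at 31.0, 4.54, 25.0 and 9.77 TPM in control replicates 1 to 4. Control replicates 2 and 4 were low, and control replicate 1 lay above 2 of the 3 treated libraries. The log2 fold change of Ighg2c was 1.11 with a 95% interval from 0.15 to 2.08 (limma, Benjamini-Hochberg adjusted p = 0.116). The call depended on single control libraries. Without control replicate 1 Ighg2c rose by 1.48 (adjusted p = 0.00532), and without control replicate 3 by 1.38 (adjusted p = 0.00808). Without control replicate 2 its difference was 0.64 (adjusted p = 0.22), and with only genes of at least 5 TPM tested the adjusted p was 0.0492 at an unchanged 1.11.

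Ighg3, the IgG subclass gene most often linked to responses to carbohydrate antigens, had the largest negative difference of the members at low TPM. It was at 0.50, 1.57 and 1.65 TPM in treated replicates 1 and 2 and the third treated library, and at 1.73, 1.43, 7.49 and 3.66 TPM in control replicates 1 to 4. The higher 2 control libraries, replicates 3 and 4, set the control mean, and control replicate 2 lay within the treated range. The log2 fold change of Ighg3 was -0.89 with a 95% interval from -1.70 to -0.08 (limma, Benjamini-Hochberg adjusted p = 0.13), and without control replicate 2 it was -1.13 and passed (adjusted p = 0.0377). Without control replicate 3 Ighg3 was at -0.53, and with the replicate block at -0.39, with no call in either.

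Ighg2b and Ighg1 varied widely within the treated group. Ighg2b was at 11.6, 28.0 and 9.31 TPM in treated and at 8.43, 4.07, 27.0 and 9.93 TPM in control libraries, with a single high library in each group. Its log2 fold change was 0.50 with a 95% interval from -0.48 to 1.48. That value was 0.05 without treated replicate 2, 0.13 without control replicate 2, 0.80 without the third treated library and 0.95 without control replicate 3, and the replicate block gave 1.47, with no call in any of these. Ighg1, the gene of the subclass linked to interleukin 4 responses in mice, was at 1.00, 20.8 and 0.02 TPM in treated and at 2.80, 0.80, 5.24 and 4.90 TPM in control libraries. Treated replicate 2 alone put the treated mean of Ighg1 above the control mean, at 7.28 TPM against 3.44 TPM, and the log2 fold change was -0.17. Without treated replicate 2 Ighg1 passed, at -1.48 (limma adjusted p = 0.0123), whereas leaving out the third treated library gave 0.73. Ighg2c was the highest IgG gene in 5 of the 7 libraries and Ighg2b in the other 2, control replicates 3 and 4. Ighg2c per Ighg2b ran from 1.40 to 3.21 in treated libraries, against from 0.926 to 3.68 in controls.

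**Figure D2:**
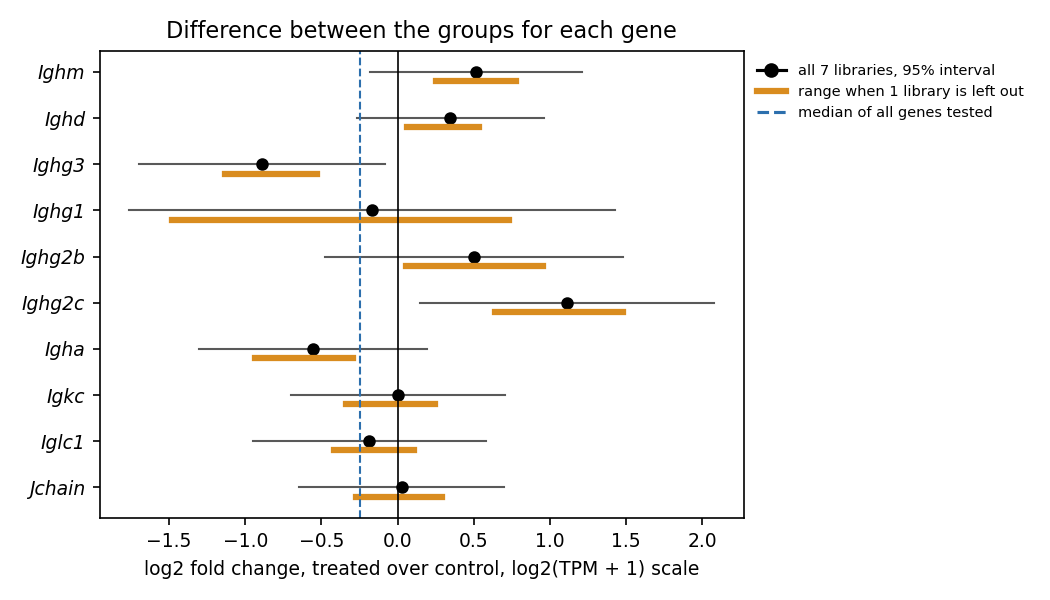
Log2 fold change of each gene, treated over control, on the log2(TPM + 1) scale, as a point with its 95% interval, with the range found when each library was left out in turn as a thick line below it. Only the intervals of Ighg2c and Ighg3 did not include 0, and the lines of Ighg1, Igkc, Iglc1 and Jchain crossed 0; the dashed line marks the median of all genes tested, -0.24.

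The light chain genes had no difference beyond their spread. Igkc was at 225, 339 and 212 TPM in treated replicates 1 and 2 and the third treated library, and at 300, 124, 419 and 261 TPM in control replicates 1 to 4. All 3 treated libraries lay inside the control range, and the log2 fold change was 0.00 with a 95% interval from -0.70 to 0.71. Iglc1, a lambda light chain constant gene, averaged 11.4 ± 3.53 TPM (SD, n = 3) in treated and 14.4 ± 8.32 TPM (SD, n = 4) in control libraries, a log2 fold change of -0.19 that was 0.07 after median-of-ratios scaling. Igkc made up 95.8 ± 0.672% (SD, n = 3) of Igkc plus Iglc1 TPM in treated and 94.9 ± 1.83% (SD, n = 4) in control libraries (two-sided exact permutation p = 0.514, adjusted p = 0.8). With the related genes Iglc2, Iglc3 and Iglc4 counted as lambda, kappa made up 77.2 ± 3.24% (SD, n = 3) in treated and 78.4 ± 6.81% (SD, n = 4) in control libraries. Iglc2 and Iglc3 had log2 fold changes of 0.21 and 0.29 (limma, Benjamini-Hochberg adjusted p = 0.722 and 0.455).

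Shares of the summed heavy chain TPM describe the isotype mixture without regard to how much immunoglobulin RNA a library held. The 7 heavy chain shares and the kappa share were each compared by an exact two-sided permutation test. With 3 and 4 libraries the smallest p it can give is 0.0286. After Benjamini-Hochberg adjustment for the 8 shares, a share at that p would not pass unless several others reached it too. The adjusted test could therefore hardly call a share, and 0 passed. No unadjusted p was under 0.05 either. Igha held 16.2%, 6.50% and 16.9% of heavy chain TPM in treated replicates 1 and 2 and the third treated library, and 36.6%, 20.7%, 17.7% and 20.7% in control replicates 1 to 4. It was the only 1 of the 8 shares whose groups did not overlap, while the groups did not overlap for 30.5% of single genes tested. The gap between the groups was under 1 percentage point, from 16.9% to 17.7%. Treated replicate 2 was low and control replicate 1 was high. The means were 13.2 ± 5.82% (SD, n = 3) in treated and 24.0 ± 8.58% (SD, n = 4) in control libraries, a difference of -10.75 percentage points (exact permutation p = 0.0571, adjusted p = 0.343). The difference was -6.52 without control replicate 1 and -12.6 when the third treated library was left out.

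Ighm held the largest share in every library, from 57.4% to 63.6% in treated libraries, against from 38.8% to 63.2% in controls, where control replicate 1 was the low one. Its means were 60.8 ± 3.17% (SD, n = 3) in treated and 55.1 ± 11.1% (SD, n = 4) in control libraries, a difference of 5.62 percentage points (exact permutation p = 0.6, adjusted p = 0.8) that was 0.18 without control replicate 1. Ighg2c held 12.5 ± 1.91% (SD, n = 3) in treated and 7.76 ± 4.60% (SD, n = 4) in control libraries, and control replicate 1 at 14.2% lay among the treated values (exact permutation p = 0.171, adjusted p = 0.457). Ighg3 held 0.494 ± 0.298% (SD, n = 3) in treated and 1.56 ± 0.633% (SD, n = 4) in control libraries (exact permutation p = 0.0857, adjusted p = 0.343). Its highest treated share, 0.809%, passed the lowest control share, 0.795%, by little. Ighd, Ighg1 and Ighg2b had exact permutation p of 0.943, 0.886 and 0.514. All IgG genes together held 16.9% to 26.1% in treated and 11.1% to 20.2% in control libraries. The class-switched share, IgG plus IgA, was 34.2 ± 2.39% (SD, n = 3) in treated and 40.0 ± 11.5% (SD, n = 4) in control libraries, a difference of -5.73 percentage points that was -0.11 without control replicate 1.

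**Figure D3:**
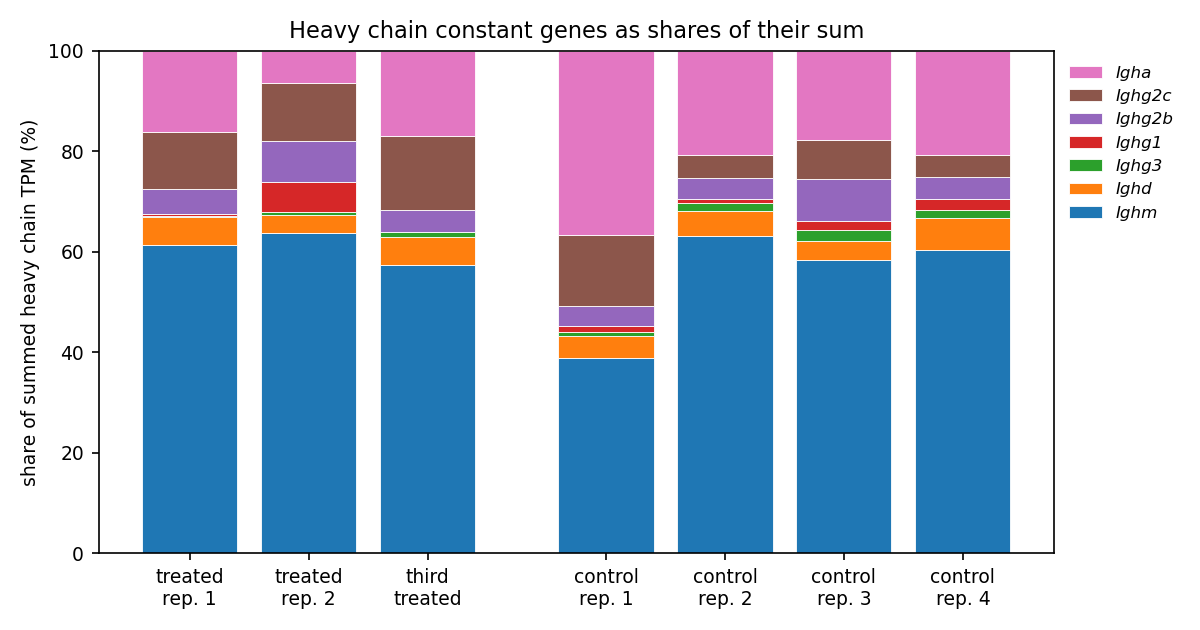
Each bar is a library, treated to the left of control, split into the shares of the 7 heavy chain genes in their summed TPM, in percent. Ighm held the largest part of each bar, Igha at the top held less in each treated library (up to 16.9%) than in each control library (from 17.7%), and control replicate 1 stands out with 36.6% Igha.

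Summed over the 7 genes, heavy chain TPM was 231, 343 and 204 in treated replicates 1 and 2 and the third treated library, and 218, 97.5, 320 and 225 in control replicates 1 to 4. Light chain TPM, Igkc plus Iglc1, was 233, 354 and 222 in treated libraries and 307, 131, 443 and 280 in control libraries. Both sums overlapped between the groups, with a ratio of means of 1.21 for heavy and 0.930 for light chains. Among several sums and ratios examined, light chain TPM per heavy chain TPM did separate the groups. It was at 1.01, 1.03 and 1.09 in treated libraries and 1.41, 1.34, 1.38 and 1.24 in control libraries. The groups did not overlap for 1 of the 8 shares and for 30.5% of single genes tested. The level of a single gene and this ratio are unlike measures. The means of this ratio were 1.04 ± 0.043 (SD, n = 3) in treated and 1.35 ± 0.0738 (SD, n = 4) in control libraries, given without a test because it is a score over chosen genes. With all 4 lambda constant genes among the light chains the ratio ran from 1.21 to 1.41 in treated libraries, against from 1.57 to 1.70 in controls. Igkc per Ighm, the most abundant gene of each kind, ran from 1.55 to 1.81 in treated libraries, against from 1.92 to 3.55 in controls. Both genes hold the largest part of the light and heavy chain sums, so these ratios are not independent of each other. The variable segments did not show that separation: TPM of light over heavy chain segments, summed over 160 Igkv, 3 Iglv and 183 Ighv symbols, was 1.79 ± 0.172 (SD, n = 3) in treated and 1.76 ± 0.149 (SD, n = 4) in control libraries.

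Genes of B cells, cells that make these RNAs, overlapped between the groups in their summed level. The sum over 18 genes was 158, 204 and 167 TPM in treated replicates 1 and 2 and the third treated library, and 114, 72.2, 210 and 179 TPM in control replicates 1 to 4. Control replicate 2 was lowest here too, and control replicate 3 highest. Of 17 tested, 1 rose, Btla, an inhibitory receptor that T cells also express (1.20 on the log2 scale; adjusted p by limma = 0.0402), and 0 fell, or 5.88% higher against 4.3% of all genes tested. The log2 fold change was above 0 for 16 of the 17, with a median of 0.36 against -0.24 over all genes. The transcription factors Ebf1 and Pax5 had log2 fold changes of 0.56 and 0.50 (limma adjusted p = 0.128 and 0.276). Heavy chain TPM per TPM of these 18 genes was 1.46 ± 0.232 (SD, n = 3) in treated and 1.51 ± 0.284 (SD, n = 4) in control libraries, with overlapping ranges.

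**Figure D4:**
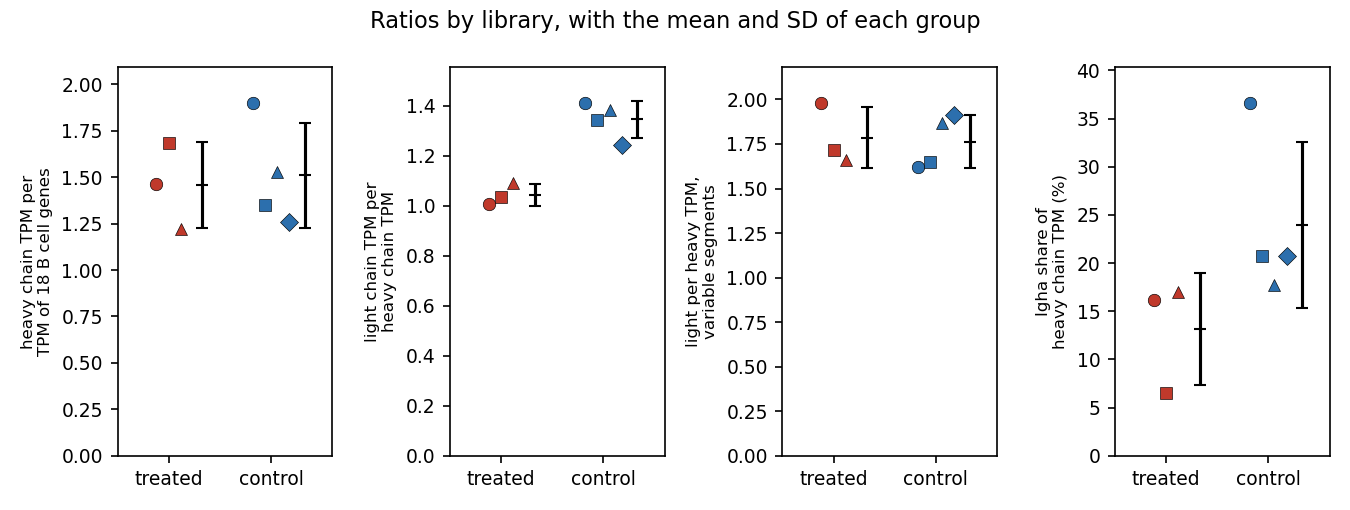
From left to right, each library's heavy chain TPM per TPM of 18 B cell genes, light chain per heavy chain TPM of the constant genes, the same ratio of the variable segments, and the Igha share of heavy chain TPM in percent, treated in red and control in blue, with the mean and SD of each group in black. The light to heavy ratio of the constant genes ran up to 1.09 in treated libraries and from 1.24 in control libraries, while the ratio of the variable segments overlapped.

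Plasma cell genes moved in both directions. Summed over 14 genes they ran from 200.5 to 282 TPM in treated libraries, against from 320.2 to 380.5 TPM in controls. Xbp1 gave the largest part of that sum, with means of 95.9 TPM in treated and 152.3 TPM in control libraries. The log2 fold change was above 0 for 5 of the 12 tested and below 0 for 7. Its median over the list was -0.21, against -0.24 over all genes. Of 12 tested, 2 fell, or 16.7% against 7.59% of all genes. They were Sdc1, a surface proteoglycan found on plasma cells and epithelia (-1.18 on the log2 scale), and Xbp1, a transcription factor of secretory cells (-0.67). A single gene, 8.33% against 4.3% of all genes, rose: Prdm1, the regulator of plasma cell and effector T cell differentiation (1.31; adjusted p by limma = 0.0179). Irf4 had a log2 fold change of 0.99 and was not called (limma adjusted p = 0.0551). In the same libraries summed epithelial and mesothelial genes ran from 842.1 to 1585 TPM in treated libraries, against from 2227 to 2749 TPM in controls. Their part in the values of Sdc1, Xbp1 and the plasma cell sum was not tested. Mzb1, a chaperone of immunoglobulin assembly in B and plasma cells, was at 7.07 ± 1.72 TPM (SD, n = 3) in treated and 7.79 ± 3.45 TPM (SD, n = 4) in control libraries. Tnfrsf17, a survival receptor of plasma cells, reached no more than 0.23 TPM in any library. Of 5 genes linked to B-1 cells, the B cells that dominate the peritoneal cavity, 1 rose, Cd5, which T cells also express (2.68), and 0 fell. That is 20% higher against 4.3% of all genes. The log2 fold change was above 0 for 2 of the 5 and below 0 for 3, with a median of -0.01.

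Genes of class switching were called higher at about the rate of all genes, and none was called lower. Of 22 tested, 1 rose, Batf, a transcription factor of activated lymphocytes (1.59 on the log2 scale; adjusted p by limma = 0.0117), and 0 fell. That is 4.55% higher against 4.3% of all genes, and 0% lower against 7.59%. The median log2 fold change of the list was -0.25 against -0.24 over all genes. Of 11 genes for antibody binding and transport, 2 fell, the IgG receptors Fcgr3 and Fcgr1 (-0.96 and -0.95, adjusted p = 0.0462 and 0.0478), and 0 rose. The 2 are 18.2% of the list, against 7.59% of all genes called lower. Macrophages carry both receptors, and the summed macrophage genes, which include Fcgr1, are given above for the same libraries. Pigr, which carries polymeric IgA across epithelia, reached at most 0.16 TPM. Ighe, the IgE gene, was listed at 0 in all 7 libraries.

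The genes whose pattern over the 7 libraries was most like that of Ighm, by the root mean square difference of centred log2(TPM + 1) values, were Pou2af1, a B cell coactivator, Klf2, H2-Ob, Cd79b, a signalling chain of the B cell receptor, and Pou2f2, at 0.18 to 0.19. For Igkc they were Lat2, P2ry14, Trim30b, Xdh and Cd40, at 0.15 to 0.21. For Jchain they were Ppig, Rpl31-ps11, Rif1, Zfp950 and Zfp518a, at 0.13 to 0.17. For Igha the closest were less alike, Smco2, Lncob1, Platr16 and Frey1 among them, at 0.28 to 0.35. Among the members, Ighm was closest to Ighd and Ighg2b (0.33 each), at 0.85 from Igha and farthest from Ighg1 (1.07).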

How the data were processed

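Poly(A)-selected stranded mRNA libraries were sequenced per the labels' protocols, and the authors deposited TPM values, 1 row per transcript with a gene symbol (149132 rows). Per the submitters' processing notes fastp, HISAT2, StringTie and mm39 were used, without roles. TPM was summed over the rows of each symbol, leaving out 1001 rows that had no symbol (0.307% to 0.618% of TPM). There were 0 other columns of values. Genes reaching 1 TPM in 3 or more libraries were tested on log2(TPM + 1) with limma 3.58.1 in R 4.3.3 (variance trend, Benjamini-Hochberg adjustment over all genes, threshold 0.05). The model was tested on simulated data. Shares were compared by exact permutation. Named genes were the 10 members, up to 4 genes per list, by smallest p, and the 5 most alike genes of 4 members. Adgre1, Mzb1, Tnfrsf17, Pigr, Ighe, Iglc4 and the variable segments were chosen after their values were seen. A few genes that the rule for named genes picks are not given singly. Members and lists were chosen with earlier results of these data known. Sequences came from GENCODE M21, which is of another build than the files, so no coordinates are given. Alternatives changed the pseudocount, filter, scaling, variance model, block and libraries.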

Additional observations from a re-analysis of the deposited data

Results flagged for a closer look

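Of 29 quantities examined in the 4 control libraries, 3 had a single library far from the others by Dixon's test at the 95% level, which chance alone does in about 1 in 20 groups. The Igha share of heavy chain TPM was 36.6% in control replicate 1, and the next highest control library had 20.7%. In the same library Ighg2c per Ighg2b was 3.68, and the next was 1.12. The Ighg2b share was 8.41% in control replicate 3, and the next was 4.41%.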

How the results depend on the processing

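Of 158 values of the members' fold changes under alternatives, 133 kept their direction and side of the threshold, 7 gained a call and 18 changed sign. Sign changes were 0.16 for Ighg1 and -0.000380 for Igkc with a pseudocount of 5, 0.0678 for Iglc1 with median-of-ratios scaling, and, without both control replicate 3 and the third treated library (chosen after seeing the data), 0.95 for Ighg1 and 0.12 for Iglc1. Leaving out 1 library gave -1.48 to 0.73 for Ighg1, -0.34 to 0.24 for Igkc, -0.42 to 0.11 for Iglc1 and -0.28 to 0.29 for Jchain. Members called higher were 1 with genes of at least 5 TPM (Ighg2c), and 0 to 1 with a library left out. Members called lower were 0 to 2 with a library left out. Replicate numbers 1 and 2 occur in both groups, but no label makes them pairs, and samples with the same number had deviations from their group means that correlated at -0.0195 and -0.0896 across genes. With the replicate block, 1 member was called higher, Ighm at 1.27 (adjusted p = 0.0441), Ighg1 was at 1.34 and Iglc1 at 0.52, and 135 genes were called lower; with 4 libraries the Igha share differed by -17.3 percentage points. With all 7 libraries, 0 shares passed with Ighd left out of the sum or with the highest transcript row only, nor did the kappa share with all lambda genes counted. Since a single share could not pass after adjustment, these settings say little about the calls. With a library left out the exact test can give no p below 0.0667, and the replicate block gave shares no test, so neither bears on those calls. The Ighd share differed by -0.17 with the highest transcript row only and by -0.57 without both libraries, and from -0.24 to 0.74 with a library left out. Those of Ighg1 and Ighg2b ran from -1.26 to 1.77 and from -0.43 to 1.76, and the kappa share was -1.24 with all lambda genes counted (chosen after seeing the data). Light per heavy chain differed by -0.49 with the highest row only, and from -0.34 to -0.28 with a library left out. All genes called higher, 643, were 1354 with median-of-ratios scaling, 3 with no filter and 388 to 794 with a library left out. Those called lower, 1136, were 4 with no filter, 1872 without mitochondrially encoded genes, 267 without both libraries and 585 to 2909 with a library left out. The causes were not tested. TPM gives no depth, so members below about 1 TPM, such as Ighg1 in the third treated library, have no known counting error.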
